A study of Mus musculus with 8 samples.

Results

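The Zfp9xx genes are zinc finger genes whose mouse symbol is Zfp9 followed by 2 more digits. Of 56748 rows in the count table, 64 carried such a symbol, and the 57 that held at least 20 counts over all libraries are described here. The 7 others were Zfp935, Zfp965, Zfp968 and Zfp969, with no count in any library, and Zfp966, Zfp967 and Zfp973, with 3, 8 and 14 counts in all. Words of 31 bases found in another gene made up 90.5% (Zfp973) to 100% (Zfp935, Zfp967 and Zfp969) of the transcripts of these 7. How reads that fit several genes were counted is not given. In these 7 genes a low or absent level cannot be told apart from reads left uncounted for that reason. A shared number in the symbol is a matter of naming and does not by itself make a family.

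Adult mouse testis was the source of the RNA, sequenced in bulk, with 4 libraries of genotype Ssty2-/- (Ssty2 knockout) and 4 libraries of genotype WT (wild type). No strain, age, promoter or further allele is given in the labels, and whether each library stands for its own animal is not said. The p-values thus cover the spread among the libraries alone, and that spread may be technical. The series title names the deletion of Ssty2 repeats on the Y chromosome and an altered sex ratio, and the comparison asks which transcripts differ between knockout and wild-type testis. Ssty2, the targeted multicopy spermatid gene, was at 0 counts in all 4 libraries of the knockout, against 56, 78, 83 and 45 in those of the wild type. That is at least 77.0-fold lower in knockout, taking 3 counts over the group as the limit that 0 allows. These counts are of the row with that symbol only, and rows of other copies were not looked at. Library totals ran from 18036708 to 22639737 counts in knockout and from 18763650 to 24415587 in wild type.

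Zinc finger proteins of the C2H2 type bind DNA through repeated finger modules, and tandem duplication has spread their genes in clusters over mouse chromosomes. Many clustered members also carry a KRAB domain, through which they recruit the corepressor TRIM28 and histone methyltransferases, chiefly at retrotransposons. The testis is a tissue in which retrotransposon control matters for the germ line. The C2H2 motif was found by translation of the longest open reading frame in 55 of the 57 genes, with a median of 11 and a highest count of 21 motifs. Zfp939, annotated as a transcribed unprocessed pseudogene, is among them with 14 motifs. Zfp957 and Zfp972 had 0 matches to the motif in that longest frame, and their annotated coding sequences were not searched.

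By annotation order, 37 of the 57 genes lay in 5 chromosome clusters, in which neighbouring members had at most 10 protein-coding genes between them. The chromosome 4 cluster held 16 members, in the order Zfp990, Zfp980, Zfp986, Zfp987, Zfp992, Zfp981, Zfp993, Zfp989, Zfp991, Zfp988, Zfp978, Zfp982, Zfp985, Zfp979, Zfp984 and Zfp933. The chromosome 17 cluster held 10, in the order Zfp948, Zfp983, Zfp995, Zfp942, Zfp943, Zfp947, Zfp994, Zfp944, Zfp946 and Zfp945. Zfp970, Zfp972, Zfp971 and Zfp931 formed a cluster of 4 on chromosome 2, Zfp977, Zfp976, Zfp975 and Zfp936 a cluster of 4 on chromosome 7, and Zfp930, Zfp964 and Zfp963 a cluster of 3 on chromosome 8. The remaining 20 genes lay outside these clusters. Genes under 20 counts did not enter the clustering. Of these, Zfp965, Zfp966, Zfp967, Zfp968, Zfp969 and Zfp973 also lie on chromosome 2, before Zfp970 in annotation order. Whether they belong with the chromosome 2 cluster was not looked at.

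Several chromosome 4 genes had closely related sequence just before their transcription start. Of the tested genes with both motifs named below, Zfp979, Zfp980 and Zfp981 rose in knockout, Zfp984 fell, and Zfp982 and Zfp985 did not pass. The stretches of 5 of these genes, all but Zfp985, are shown, a choice made with their outcome known. Each gives the 250 bases before the RefSeq start, 5′ to 3′ in the direction of transcription, in build GRCm38.p6, and capitals mark 2 motifs that all 5 share, AGCTAATTAA and then TTGGGCGGGT. They lie as follows: Zfp980 at chr4:145670447-145670696 on the plus strand, Zfp981 at chr4:146514670-146514919 on the plus strand, Zfp979 at chr4:147642509-147642758 on the minus strand, Zfp982 at chr4:147492167-147492416 on the plus strand (1 of its annotated starts) and Zfp984 at chr4:147809789-147810038 on the minus strand.
Zfp980: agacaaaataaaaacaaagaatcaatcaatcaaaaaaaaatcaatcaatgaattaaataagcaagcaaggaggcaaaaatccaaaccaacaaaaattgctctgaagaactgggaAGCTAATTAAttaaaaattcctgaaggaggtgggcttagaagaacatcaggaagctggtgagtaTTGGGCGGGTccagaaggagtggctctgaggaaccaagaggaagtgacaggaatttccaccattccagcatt
Zfp981: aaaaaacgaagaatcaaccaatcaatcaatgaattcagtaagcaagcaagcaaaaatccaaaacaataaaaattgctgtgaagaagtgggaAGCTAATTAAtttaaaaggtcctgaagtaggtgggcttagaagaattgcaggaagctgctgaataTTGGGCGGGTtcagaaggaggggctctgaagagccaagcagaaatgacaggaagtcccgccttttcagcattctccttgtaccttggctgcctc
Zfp979: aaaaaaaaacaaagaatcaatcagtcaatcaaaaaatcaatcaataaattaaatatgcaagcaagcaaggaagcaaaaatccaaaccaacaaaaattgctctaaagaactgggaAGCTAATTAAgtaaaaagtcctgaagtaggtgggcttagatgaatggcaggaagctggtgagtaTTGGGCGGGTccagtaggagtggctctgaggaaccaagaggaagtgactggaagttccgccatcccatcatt
Zfp982: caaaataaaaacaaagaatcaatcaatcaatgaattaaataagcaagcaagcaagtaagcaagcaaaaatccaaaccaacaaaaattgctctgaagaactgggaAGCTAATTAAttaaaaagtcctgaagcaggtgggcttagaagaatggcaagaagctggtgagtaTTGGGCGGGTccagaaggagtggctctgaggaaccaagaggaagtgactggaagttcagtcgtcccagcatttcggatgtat
Zfp984: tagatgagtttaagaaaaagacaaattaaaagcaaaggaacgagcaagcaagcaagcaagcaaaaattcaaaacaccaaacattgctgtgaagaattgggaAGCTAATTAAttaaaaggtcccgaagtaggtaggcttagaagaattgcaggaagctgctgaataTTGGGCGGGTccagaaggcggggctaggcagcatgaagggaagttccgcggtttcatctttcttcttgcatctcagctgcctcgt

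TTGGGCGGGT is the word of 10 bases found in the promoters of the most Zfp9xx genes, and AGCTAATTAA the one found in the most promoters of the chromosome 4 cluster, with ties given to the word that is rarest over all promoters. Both were thus picked from these sequences. They were searched on both strands of the same 250-base window of every promoter in the RefSeq table, and they do not overlap each other. TTGGGCGGGT was in 26 of 32851 promoters, or 0.0791%, and 10 of those were on chromosome 4. Of the 48 Zfp9xx genes with a promoter in the table, 10 held it. They were Zfp979, Zfp980, Zfp981, Zfp982, Zfp984, Zfp985 and Zfp988 of the chromosome 4 cluster, and Zfp945, Zfp947 and Zfp994 of the chromosome 17 cluster. AGCTAATTAA was in 20 promoters, or 0.0609%, 8 of them of Zfp9xx genes, all in the chromosome 4 cluster. Among the 7 Zfp9xx promoters on chromosome 4 with TTGGGCGGGT, identity between pairs ran from 59.1% to 89.0% with a median of 72.9%. The closest pair was Zfp980 and Zfp979 (89.0%), and Zfp981 and Zfp984 had 76.0%. A match is a description of the letters only.

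Of the 57 genes, 51 had enough counts to be tested, and of these 11 rose and 11 fell in knockout (quasi-likelihood test of edgeR, with p adjusted by Benjamini and Hochberg over 21952 genes and called under 0.05). These are 21.6% of the tested members in each direction, against 26.2% higher and 27.4% lower over all tested genes, and 53.5% called in either direction. The members as a whole were therefore not called more often than other genes. Their median log2 fold change was -0.20, against -0.01 over all tested genes. In 8 members every knockout library was above every wild-type library, and in 11 every knockout library was below; over all tested genes 46.7% had no such overlap. Other genes with a Zfp number, 289 of them tested, had 45 higher and 96 lower and a median of -0.15. With library totals in place of TMM, the trimmed-mean scaling of edgeR, the median of all genes shifted from -0.01 to -0.15 and the members split into 9 higher and 21 lower. Over all genes, higher calls then made up 31.8% of calls in place of 48.9%. No Zfp9xx gene that was called turned its direction under that scaling.

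**Figure D1:**
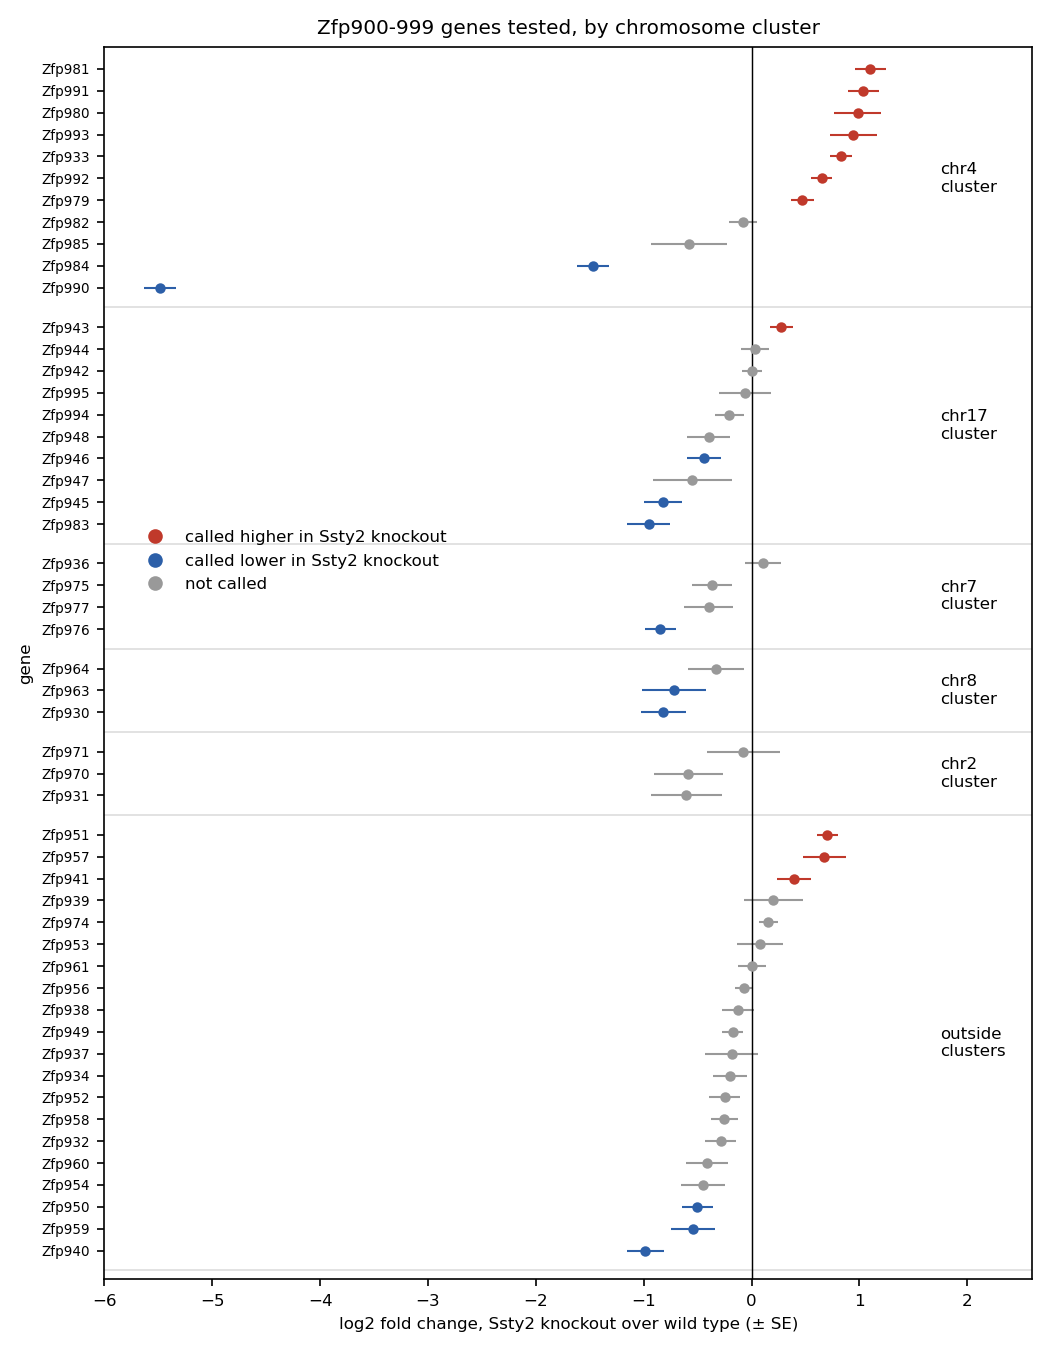
The x axis gives the log2 fold change, Ssty2 knockout over wild type, for each of the 51 tested Zfp9xx genes (points, with bars of 1 SE), and genes are grouped down the y axis by chromosome cluster. In the chromosome 4 cluster 7 of 11 genes were called higher, while Zfp990 lay at -5.49.

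The chromosome 4 cluster held 7 of the 11 genes that rose and 2 of the 11 that fell. Of its 11 tested members, Zfp979, Zfp980, Zfp981, Zfp991, Zfp992, Zfp993 and Zfp933 rose, and Zfp984 and Zfp990 fell. Rises were 63.6% and falls 18.2% of these 11, against 26.2% and 27.4% over all tested genes. The median log2 fold change of the cluster was 0.65. These 9 calls held under every alternative run. Of the 40 tested members outside it, 4 rose (10%) and 9 fell (22.5%), with a median of -0.25. The difference between this cluster and the rest was not tested.

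Zfp990 (ENSMUSG00000078503) fell furthest. It had 1.13, 0.657, 0.521 and 0.582 CPM in the knockout libraries, against 30.6, 31.7, 35.4 and 31.8 CPM in the wild-type libraries (CPM, counts relative to the TMM-scaled library size). No knockout library came near any wild-type one. The raw counts were 21, 14, 11 and 10 in knockout and 594, 725, 909 and 661 in wild type. Its change on the log2 scale was -5.49 ± 0.152 (SE, 4 libraries a group; edgeR adjusted p = 2.24e-13), which leaves 2.23% of the wild-type level. Per kilobase of annotated exon it was at 0.206 ± 0.0789 CPM in knockout and 9.25 ± 0.599 CPM in wild type (SD), so that it ranked 51 of the 57 genes in knockout and 2 in wild type. Words of 31 bases found in another gene made up 49.4% of its transcripts, and Zfp534 of the same cluster shared the most. Zfp534 itself had a log2 fold change of 0.41 and did not pass (adjusted p = 0.230).

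Zfp984, near the other end of the cluster, was the second gene to fall at least 2-fold. Its level was 2.85, 2.25, 3.45 and 2.44 CPM in knockout, against 6.90, 8.18, 7.59 and 7.84 CPM in wild type. All knockout libraries were below all wild-type libraries. Its change on the log2 scale was -1.47 ± 0.150 (SE, 4 libraries a group; edgeR adjusted p = 8.70e-07). Its exons overlap those of Gm20707, on the same strand, over 9.68% of their length. Gm13212, which shares 58.1% of the words of Zfp984 and lies next to Zfp990, also fell (log2 fold change -1.01, adjusted p = 0.00259). How reads that fit several genes were counted is not given, so near-identical copies of the cluster are uncertain one by one.

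The members that rose did so by smaller steps. Zfp981 had 12.3, 19.2, 16.8 and 21.8 CPM in knockout, against 9.21, 7.52, 7.94 and 8.03 CPM in wild type, a change of 1.10 ± 0.143 on the log2 scale (SE, 4 libraries a group; edgeR adjusted p = 9.90e-06). Knockout replicate 1 was the lowest of its group and still above wild type. Zfp991 had 18.2, 24.9, 22.0 and 23.6 CPM in knockout, against 7.57, 12.9, 12.9 and 9.76 CPM in wild type (1.03 ± 0.143, adjusted p = 1.81e-05). These were the only members called at least 2-fold higher, and with Zfp984 and Zfp990 they made 4 of 51 called at least 2-fold either way. Over all tested genes 7.83% were called at least 2-fold, 4.69% higher and 3.13% lower. Without knockout replicate 2, knockout replicate 4 or wild-type replicate 1 the count of 2-fold rises was 1. With library totals it was 0, against 4 falls.

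Zfp992, the member of the cluster with the highest level in knockout, had 45.6, 48.5, 40.1 and 49.5 CPM there, against 35.4, 28.0, 25.4 and 28.5 CPM in wild type (log2 fold change 0.65 ± 0.0954, edgeR adjusted p = 3.38e-05). Zfp933 had 13.7, 17.7, 16.9 and 16.9 CPM in knockout, against 8.24, 8.97, 9.93 and 9.52 CPM in wild type (0.83 ± 0.105, adjusted p = 7.59e-06). In both, the groups did not overlap. Zfp980 was low throughout, at 2.47, 2.86, 2.22 and 2.56 CPM in knockout against 1.08, 0.875, 1.71 and 1.39 CPM in wild type (0.98 ± 0.219, adjusted p = 0.00129). Zfp979 rose by 0.47 on the log2 scale (11.7 ± 0.653 CPM in knockout and 8.44 ± 0.994 CPM in wild type, SD, n = 4 each). Zfp993 rose by 0.94, although its highest wild-type library reached its lowest knockout library.

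**Figure D2:**
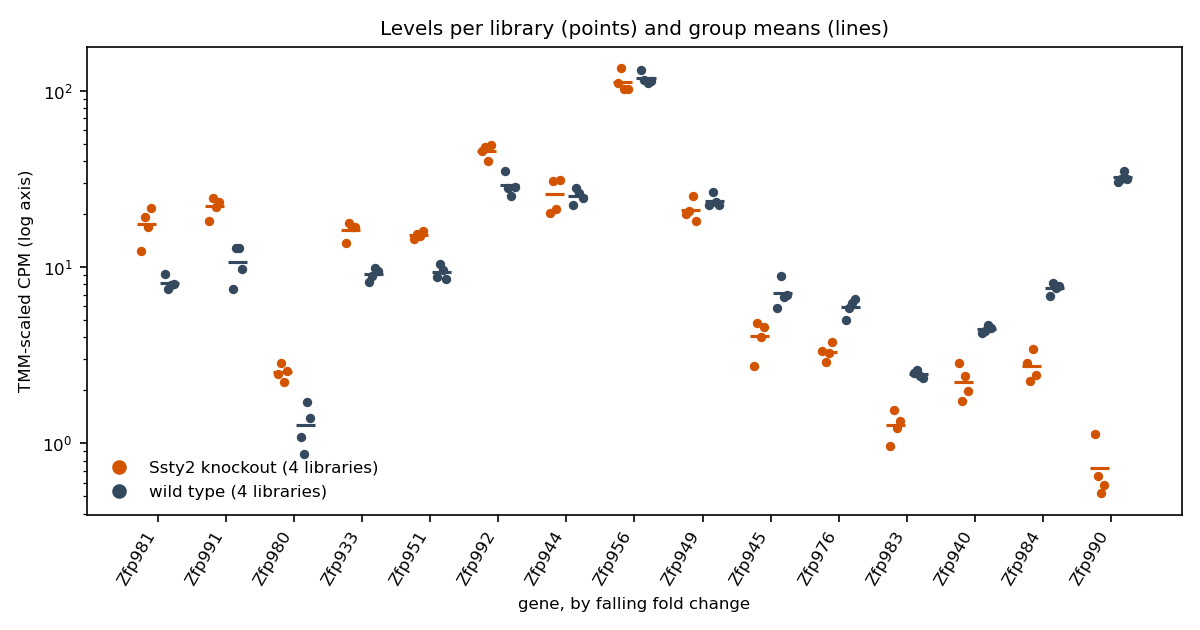
Points give the TMM-scaled CPM of each library on a log axis, with Ssty2 knockout left of wild type for each gene and lines at the group means, for the 15 Zfp9xx genes with the largest or most certain changes or the highest levels. Zfp990 is the only gene shown whose groups lie more than 10-fold apart.

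Uniqueness of sequence differed among the genes that rose. Shared 31-base words made up 91.9% of Zfp993, 88.0% of Zfp991 and 82.8% of Zfp980, but 59.9% of Zfp981, 49.9% of Zfp992, 32.4% of Zfp979 and 10.02% of Zfp933. The rise of Zfp933 thus concerned a gene whose reads can mostly be told from those of others. The closest relative of Zfp991 was the pseudogene Znf41-ps, which rose as well (log2 fold change 0.98, edgeR adjusted p = 1.29e-06). Zfp991 was itself the closest relative of Zfp993 (86.9% of its words) and of Zfp992 (41.7%). Whether Zfp991, Zfp992 and Zfp993 rose separately was not tested. The closest relative of Zfp981, Rex2 (44.8%), rose (0.60), and that of Zfp980 and Zfp979, Zfp600, did not pass (-0.05). Over all 57 genes the median shared percentage was 31.4%, and 8 genes were under 5%.

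The other 2 tested members of the cluster did not pass. Zfp982, which has been tied to stem cell identity in mouse embryonic stem cells, had 8.0, 12.3, 10.5 and 9.84 CPM in knockout and 9.11, 12.1, 9.97 and 11.9 CPM in wild type (log2 fold change -0.08, edgeR adjusted p = 0.632). Zfp985 had 48 counts in knockout and 82 in wild type (-0.58, adjusted p = 0.176). Its groups overlapped. Of all 9 tested genes with TTGGGCGGGT before the start, 3 rose (Zfp979, Zfp980, Zfp981), 2 fell (Zfp984, and Zfp945 of chromosome 17) and 4 did not pass. That is 33.3% higher and 22.2% lower, near the 26.2% and 27.4% over all tested genes. Zfp986, Zfp987, Zfp989, Zfp988 and Zfp978 had 20, 25, 6, 20 and 20 counts in knockout and 18, 30, 19, 31 and 22 in wild type, too few to be tested. Shared words made up 79.4% (Zfp989) to 93.7% (Zfp986) of their transcripts.

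Genes that are not Zfp9xx members lie among them. Between Zfp990 and Zfp933, 22 other genes were tested. Of these, 5 rose (22.7%) and 2 fell (9.09%), against 26.2% and 27.4% over all tested genes. The median log2 fold change of the 22 was 0.12. The largest rise was that of 1700095A21Rik, annotated as antisense and placed next to Zfp981, with 61.2 ± 6.997 CPM in knockout and 19.4 ± 5.79 CPM in wild type (SD, n = 4 each; log2 fold change 1.67, edgeR adjusted p = 1.75e-07). Its annotated exons do not overlap those of Zfp981. Within 10 tested genes on either side of the 4 members with a 2-fold call, 40 genes were not Zfp9xx, and 1 of these rose and 4 fell by at least 2-fold. The 4 that fell were Gm13212, Gm13230, Platr16 and Gm21411. Platr16 and Gm13230 lie just outside the cluster near Zfp990. The summed counts of Platr16 were 4 in knockout and 95 in wild type, and those of Gm13230 were 26 in knockout and 78 in wild type.

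**Figure D3:**
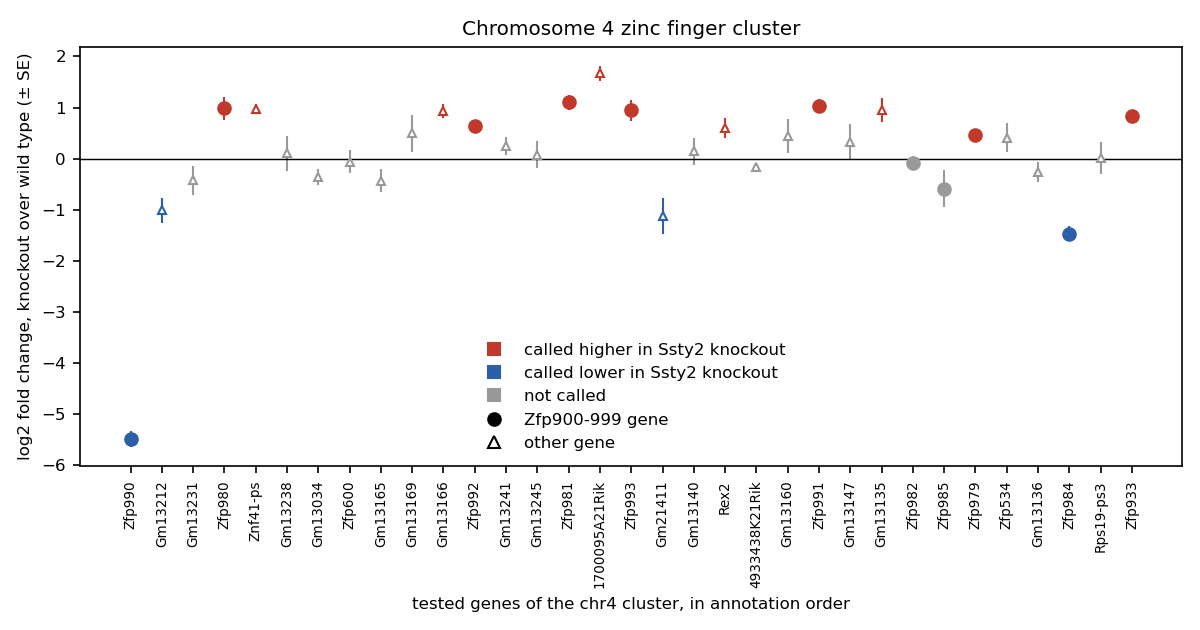
Tested genes of the chromosome 4 cluster stand along the x axis in annotation order, evenly spaced, and the y axis gives the log2 fold change, knockout over wild type, with bars of 1 SE. Filled circles are Zfp9xx genes and open triangles other genes; Zfp990 at one end lies at -5.49 and 12 genes, 7 of them Zfp9xx, were called higher.

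The chromosome 17 cluster had 1 gene that rose, 3 that fell and 6 that did not pass. Rises were thus 10% and falls 30%, against 26.2% and 27.4% over all tested genes. Zfp983 had 0.966, 1.55, 1.23 and 1.34 CPM in knockout, against 2.52, 2.62, 2.41 and 2.36 CPM in wild type (log2 fold change -0.96 ± 0.195, edgeR adjusted p = 0.000649). Zfp945, of which only 1.69% of words are shared, had 2.74, 4.84, 4.02 and 4.60 CPM in knockout, against 5.87, 8.92, 6.82 and 6.97 CPM in wild type (-0.82 ± 0.174, adjusted p = 0.000889). Both had no overlap between groups. Zfp946 fell by 0.44 on the log2 scale (adjusted p = 0.0274), with overlapping groups, and leaving out wild-type replicate 2, or knockout replicate 1, 2 or 3, ended the call. Zfp943 rose by 0.28 (adjusted p = 0.0351), a call that ended without knockout replicate 3, without wild-type replicate 1, 3 or 4, and with library totals.

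Zfp944, among the most abundant members, showed no call. It had 20.3, 31.1, 21.5 and 31.4 CPM in knockout and 22.5, 28.2, 26.4 and 24.9 CPM in wild type (log2 fold change 0.03, edgeR adjusted p = 0.852). Knockout libraries spread more widely than wild-type ones around nearly the same mean. Zfp942 (0.00), Zfp995 (-0.06), Zfp994 (-0.20), Zfp948 (-0.40) and Zfp947 (-0.55) also did not pass. Among 15 other tested genes within that stretch, 1 rose and 3 fell.

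In the smaller clusters no Zfp9xx gene rose. Each had only 3 or 4 tested members, and over all tested genes 26.2% rose and 27.4% fell. On chromosome 7, Zfp976 had 3.33, 2.91, 3.27 and 3.78 CPM in knockout, against 5.04, 5.90, 6.23 and 6.64 CPM in wild type (log2 fold change -0.85 ± 0.144, edgeR adjusted p = 0.000130). All knockout libraries were lower. Its neighbours Zfp975 (-0.37), Zfp977 (-0.40) and Zfp936 (0.11) did not pass. The 3 other tested genes within that stretch all rose. On chromosome 8, Zfp930 fell by 0.82 on the log2 scale (1.69 ± 0.379 CPM in knockout and 3.00 ± 0.563 CPM in wild type, SD, n = 4 each). Zfp963 had a log2 fold change of -0.72 at an adjusted p of 0.0494, a call that ended in 10 of 13 alternatives, among them without knockout replicate 1, 3 or 4 and without wild-type replicate 1, 2 or 3. Its exons overlap those of Gm20422 over 40.8% of their length. Zfp964 (-0.33) did not pass. Of 9 other tested genes within that stretch, 5 rose and 3 fell. On chromosome 2, Zfp931 (-0.61), Zfp970 (-0.59) and Zfp971 (-0.08) did not pass and Zfp972, with 11 counts in knockout and 15 in wild type, was not tested. Of 3 other tested genes there, 2 fell and none rose.

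Of the 20 genes outside clusters, 3 rose and 3 fell. That is 15% each way, against 26.2% higher and 27.4% lower over all tested genes. Zfp951, on chromosome 5, had 14.5, 15.5, 15.1 and 16.1 CPM in knockout, against 8.85, 10.4, 9.66 and 8.61 CPM in wild type (log2 fold change 0.70 ± 0.0954, edgeR adjusted p = 1.59e-05). Zfp940, on chromosome 7, had 2.85, 1.74, 2.41 and 1.98 CPM in knockout, against 4.22, 4.33, 4.67 and 4.52 CPM in wild type (-0.98 ± 0.169, adjusted p = 0.000143). Both had no overlap between groups and few shared words (7.0% for Zfp951 and 2.47% for Zfp940). Zfp957 rose by 0.68 and Zfp950 fell by 0.50 on the log2 scale (adjusted p = 0.00813 and 0.00682).

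Calls of a further pair lay close to the threshold. Zfp941 rose by 0.39 (edgeR adjusted p = 0.0481), and the call ended without knockout replicate 3 or 4, without wild-type replicate 1, 2 or 4, with library totals and with DESeq2. Zfp959 fell by 0.54 (edgeR adjusted p = 0.0348), and the call ended without knockout replicate 1, 3 or 4, without wild-type replicate 2, 3 or 4, with no filter and with DESeq2. Over the alternatives the log2 fold change of Zfp941 ran from 0.25 to 0.49, with an adjusted p of 0.0184 to 0.206. That of Zfp959 ran from -0.68 to -0.44, with an adjusted p of 0.00969 to 0.102.

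Zfp956, on chromosome 6, was by far the most abundant of these genes. It had 111, 135, 102 and 103 CPM in knockout and 132, 115, 112 and 115 CPM in wild type (log2 fold change -0.07 ± 0.0823, edgeR adjusted p = 0.499). The groups overlapped and differed by less than the spread between libraries. With library totals Zfp956 was called lower (-0.21, adjusted p = 0.0305), below the median of all genes under that scaling, -0.15. Zfp949, on chromosome 9, had 19.97, 21.0, 25.3 and 18.2 CPM in knockout and 22.7, 26.7, 23.5 and 22.6 CPM in wild type (-0.17 ± 0.0976, adjusted p = 0.143). Zfp932, which in mouse represses endogenous retroviruses together with its paralog Gm15446, had a log2 fold change of -0.29 and did not pass (adjusted p = 0.106). It shares 44.2% of its words with Gm15446. The rest that did not pass lay between -0.45 (Zfp954) and 0.20 (Zfp939). They were Zfp960 (-0.41), Zfp958 (-0.25), Zfp952 (-0.25), Zfp934 (-0.20), Zfp937 (-0.18), Zfp938 (-0.13), Zfp961 (0.00), Zfp953 (0.07) and Zfp974 (0.15). Zfp954 and Zfp958 had no overlap between groups, although neither passed.

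Levels can be set side by side only per length, and length does not correct for reads that fit several genes. How such reads were counted is not given, so the order below is uncertain. Shared words made up 7.83% of Zfp956, 22.6% of Zfp944, 29.7% of Zfp982, 49.4% of Zfp990, 49.9% of Zfp992 and 88.0% of Zfp991. Per kilobase of annotated exon, Zfp956 led in both groups, with 38.0 ± 5.16 CPM in knockout and 39.9 ± 3.15 CPM in wild type (SD, n = 4 each). In knockout, Zfp992 (10.1 ± 0.924), Zfp944 (9.37 ± 2.14), Zfp991 (7.60 ± 0.992) and Zfp982 (6.84 ± 1.21) followed, and neighbours in that order after Zfp956 differed by less than the larger of their SDs. In wild type, Zfp990 (9.25 ± 0.599), Zfp944 (9.15 ± 0.863), Zfp982 (7.24 ± 0.992) and Zfp992 (6.45 ± 0.940) followed. There Zfp990 and Zfp944, and Zfp982 and Zfp992, differed by less than the larger of their SDs. Together the 57 genes held 0.0446% ± 0.00279 of all counts in knockout and 0.0497% ± 0.00256 in wild type. Without Zfp990 the share of all counts was 0.0445% ± 0.00281 in knockout and 0.0463% ± 0.00250 in wild type. Over TMM-scaled library sizes the 57 genes held 0.0470% ± 0.00312 in knockout and 0.0474% ± 0.00190 in wild type, within the SD of either group.

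**Figure D4:**
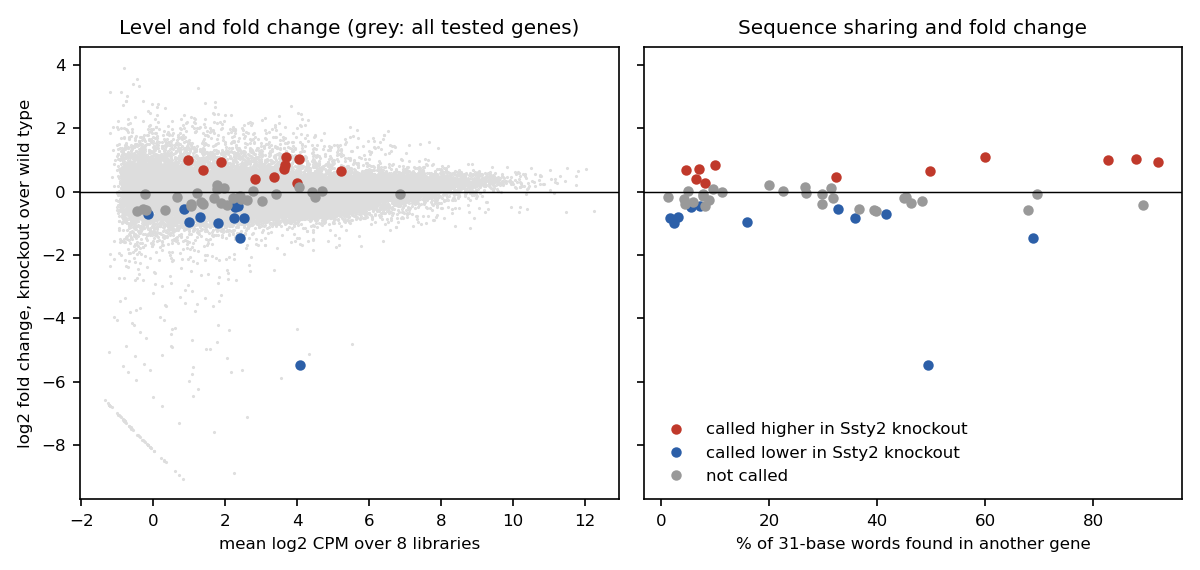
Both panels give the log2 fold change, knockout over wild type, on the y axis for the 51 tested Zfp9xx genes (coloured by call), against the mean log2 CPM over 8 libraries on the left, with all 21952 tested genes in grey, and against the percentage of 31-base words found in another gene on the right. Called genes occur from low to high sharing, and Zfp990, with 49.4% shared words, stands apart from the other members in both panels.

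Genes of KRAB zinc finger silencing were looked at as a list of 35 genes. It holds chromatin and DNA methylation cofactors and also the KRAB zinc finger genes Zfp57, Zfp568 and Zfp809. Tasor had no test, and whether for few counts or for a symbol without a match was not looked at. Of the 34 tested, 5 rose and 12 fell, with a median log2 fold change of -0.09. These are 14.7% and 35.3%, against 26.2% higher and 27.4% lower over all tested genes. Ehmt1 and Suv39h1, which encode histone H3 lysine methyltransferases, fell by 0.75 and 0.62 on the log2 scale (edgeR adjusted p = 7.22e-06 and 9.49e-05). Of the same class, Ehmt2, the partner of Ehmt1, rose by 0.29 (edgeR adjusted p = 0.000601). It was at 410 ± 20.6 CPM in knockout and 335 ± 24.7 CPM in wild type (SD, n = 4 each). Setdb1 fell by 0.26 (edgeR adjusted p = 0.00176). Suv39h2 (0.12, edgeR adjusted p = 0.239) and Setdb2 (-0.15, edgeR adjusted p = 0.162) did not pass. Ehmt2, Setdb1, Suv39h2 and Setdb2 were named after their values were seen. Zfp57, a KRAB zinc finger gene that protects imprinted methylation, rose by 0.59, and Trim24 rose by 0.29. The common corepressor gene Trim28, named after its value was seen, stood at 454 ± 11.7 CPM in knockout and 449 ± 14.8 CPM in wild type (SD, n = 4 each) and did not pass (log2 fold change 0.02, adjusted p = 0.802). With library totals in place of TMM, 4 of the list rose and 23 fell, where over all 21952 tested genes 3848 rose and 8255 fell.

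Markers of testis cell types moved in the same libraries, and none of the listed markers matched by symbol was without counts. Of 12 round and 12 elongating spermatid markers, 11 and 12 rose and none fell. Of 12 Sertoli and 12 Leydig cell markers, 11 and 12 fell and none rose. Of 11 tested spermatogonial markers 9 fell and 1 rose, and of 12 spermatocyte markers 7 fell and 1 rose. Peritubular myoid markers had 6 of 8 lower and 1 higher, endothelial markers 3 of 6 lower, and macrophage and immune markers 3 of 8 lower and 1 higher. Over all tested genes 26.2% were called higher and 27.4% lower. The summed level of the round spermatid list ran from 3373 to 3465 CPM in knockout and from 2136 to 2412 CPM in wild type. That of the Leydig list ran from 1297 to 1437 CPM in knockout and from 2487 to 2770 CPM in wild type. The Sertoli list summed to between 1291 and 1461 CPM in knockout and between 1944 and 2184 CPM in wild type, and the spermatogonial list to between 159 and 166 CPM in knockout and between 238 and 264 CPM in wild type. Elongating spermatid markers summed to between 23514 and 26911 CPM in knockout and between 15158 and 18528 CPM in wild type. For spermatocyte markers the sums were 1552 to 1801 CPM in knockout and 1772 to 2142 CPM in wild type, and the groups overlapped. Myoid markers summed to 352.1 to 392.4 CPM in knockout and 337 to 375 CPM in wild type, endothelial markers to 17.7 to 20.3 CPM in knockout and 22.6 to 25.7 CPM in wild type, and macrophage and immune markers to 419 to 504 CPM in knockout and 352 to 404 CPM in wild type. In bulk tissue, fewer cells of a type, less RNA per cell and a larger share of RNA from other cells cannot be told apart. The part of cell composition in the changes of the Zfp9xx genes was not tested.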

How the data were processed

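Bulk RNA of adult mouse testis was sequenced in 4 Ssty2 knockout and 4 wild-type libraries. The authors deposited a table of unnormalized read counts by Ensembl gene. The tools named in the submitters' processing notes are STAR, featureCounts, Trimmomatic, FastQC and DESeq2, and the build is mm39. Not given in the sources used here: versions, annotation, strandedness and how multi-mapped reads were counted. Per the labels' protocols, RNA was isolated with TRIzol and made into TruSeq libraries.

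Symbols came from GENCODE vM21 (GRCm38), which matched 52073 rows. Because its build differs from mm39, it gave names, order, exon lengths and sequence sharing only. Promoters came from the RefSeq table of GRCm38.p6. Genes were tested with edgeR 4.0.16 in R 4.3.3 (quasi-likelihood test, genotype as the only term, TMM scaling, filterByExpr with minimum count 10 and minimum total 15, Benjamini-Hochberg adjusted p under 0.05 over 21952 genes), checked on simulated data. The simulation changed few genes, as many up as down, so it could not check the scaling where 53.5% of genes are called. SE is the absolute log2 fold change over the root of F. Limits for 0 counts (3 counts) cover counting error only. Pearson's r of log2 values lay between 0.9920 and 0.9957 within groups; no pair of libraries agreed within sampling noise (chi-square per degree of freedom at least 4.19). Markers, cofactors, members and tests were chosen with earlier results of these data known. Members called at least 2-fold, the 12 called members with the smallest adjusted p and the 4 with the highest mean CPM are given per library; alternatives were other scalings, DESeq2 1.42.0, no filter, the replicate number as a block and each library left out.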

Additional observations from a re-analysis of the deposited data

Results flagged for a closer look

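Among 102 groups of 4 libraries (51 tested Zfp9xx genes in each genotype), 3 held a library far from the other libraries of its group; chance gives about 1 in 20 such groups. Zfp930 had 1.13 CPM in knockout replicate 1, against 1.83 to 1.92 CPM in the other knockout libraries. Zfp956 had 132 CPM in wild-type replicate 1, against 112 to 115 CPM in the other wild-type libraries. Zfp971 had 1.27 CPM in wild-type replicate 2, against 0.566 to 0.662 CPM in the other wild-type libraries. The call of Zfp930 was kept without knockout replicate 1, and the other 2 genes were not called with or without the library.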

How the results depend on the processing

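Over 13 alternatives and the 51 tested Zfp9xx genes, 612 of 663 results kept their side of the threshold, 34 calls were lost, 17 were gained and no called gene turned its direction. The 7 rises and 2 falls of the chromosome 4 cluster were kept under all of them. With library totals in place of TMM, 9 members rose and 21 fell (11 and 11 with TMM), 0 rose and 4 fell at least 2-fold (2 and 2 with TMM), 2 rose and 19 fell outside the chromosome 4 cluster (4 and 9 with TMM), and 23 genes of the KRAB silencing list fell in place of 12. The median over the members was then -0.34, beside a shift of the median of all genes to -0.15. Over the 8 members with under 5% shared words alone the median was -0.32, and the cause was not tested. Leaving out 1 library at a time, between 1 and 3 members rose at least 2-fold, and between 2 and 4 members outside the chromosome 4 cluster rose, the lowest without knockout replicate 3 and without wild-type replicate 1 or 4. With at most 3 or 30 coding genes between neighbours, the clusters numbered 6 and 5. The replicate block moved no count of calls by more than 1.5 times: 11 members rose and 11 fell with it, Zfp960 was gained and Zfp963 lost, and over all genes 5915 rose and 6203 fell. The labels do not say that the replicate numbers pair libraries, so they were not taken to do so. Same-numbered libraries correlated at 0.0165 to 0.140 in their deviations from the group means. These values do not settle whether same-numbered libraries shared a batch. Knockout replicates 1, 2 and 3 were each closest to the wild-type replicate of their own number, and knockout replicate 4 to wild-type replicate 2. Genes with few counts, such as the 6 untested members, limit what this depth can show. Shared words made up 71.8% (Zfp972) to 93.7% (Zfp986) of these 6 genes. In them a low level cannot be told apart from reads left uncounted because they fit several genes.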
